A study of Mus musculus with 6 samples.

Results

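The 10 genes described here are transcripts that glucocorticoids are known to induce: Fkbp5, Sgk1, Tsc22d3, Zbtb16, Cdkn1a, Ddit4, Hif3a, Errfi1, Pdk4 and Nfkbia. They were taken by symbol from a list. That list and the others used below were chosen with earlier results of these data known, so comparisons of them with all genes are descriptive. All 10 of 10 were found among the 24513 genes counted and passed the filter on low counts, as 15894 genes did. Hypothalamic RNA was sequenced from 3 NS-DADm and 3 wild-type (WT) mice, 1 library a mouse, all of the C57BL/6 strain and 3 to 4 months old. The labels do not spell out the allele. From general knowledge of the line, NS-DADm mice carry knock-in mutations in the deacetylase-activating domain of the corepressors NCOR1 and SMRT, the stretch with which both proteins engage and switch on HDAC3, a histone deacetylase. The mutations are not restricted to one cell type. The labels name no treatment, and they do not state the hour or manner of tissue collection.

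Glucocorticoids, corticosterone in mice, enter cells and bind the glucocorticoid receptor, which a chaperone complex of HSP90 and co-chaperones holds in the cytoplasm. The bound receptor moves to the nucleus and attaches to short palindromic DNA elements near its target genes. In the hypothalamus the hormone restrains the neurons that drive its own release. Some of its targets, such as Fkbp5, in turn dampen the receptor, while others act on inflammation, salt transport, growth or fuel use. Most of them also answer to other signals.

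The libraries held 24.2 M to 27.6 M reads on genes (M, 1e6 reads), and rows of unassigned reads took 28.7 to 31.2% of all counted entries. All 9 hypothalamic markers listed were detected, with summed levels of 569 to 694 CPM (normalised read counts, per 1e6 reads) in NS-DADm and 568 to 622 CPM in WT libraries. Some libraries held unlike amounts of neighbouring tissue markers. The 13 thalamic markers summed to 515 to 576 CPM in NS-DADm and 758 to 1113 CPM in WT libraries, without overlap. The 10 anterior pituitary markers summed to 2022 CPM in NS-DADm 2, to 203 and 201 CPM in NS-DADm 1 and 3, and to 40.5 to 112 CPM in WT libraries. Fewer cells of a type and less RNA per cell cannot be told apart in such tissue samples.

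None of the 10 genes passed the threshold between NS-DADm and WT hypothalamus (edgeR quasi-likelihood test, Benjamini-Hochberg (BH) adjusted p under 0.05 over 15894 genes), where 0.654% of all genes did, 0.0818% higher and 0.573% lower in NS-DADm mice. Their values leaned one way all the same, though not all of them did. Fitted log2 fold changes (NS-DADm over WT) were above 0 for 8 and below 0 for 2 of them, against 51.6% of all genes above 0, and their median was 0.13 against 0.004 over all genes. Of the 8, Ddit4 and Pdk4 were near 0 (log2 0.03 ± 0.07 and 0.01 ± 0.10 SE), as were the 2 below 0, Errfi1 and Nfkbia. Without adjustment, 4 genes had a p under 0.05, Cdkn1a, Zbtb16, Hif3a and Fkbp5, all higher in NS-DADm mice, as were 4.4% of all genes. For 3 of the 10, Cdkn1a, Zbtb16 and Fkbp5, all NS-DADm libraries lay above all WT libraries, as in 7.86% of all genes, and for 0 did they lie below, as in 8.93%. Without NS-DADm 2, the library rich in pituitary markers, 0 of the 10 passed, 9 had fitted values above 0 and the median was 0.12. In that fit 0.0312% of all genes passed, so the missing calls there say little about the 10.

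The shift was not carried evenly by the libraries. The mean over the 10 genes of log2 CPM, each taken relative to the gene's own mean over 6 libraries, was 0.02, 0.14 and 0.17 in NS-DADm 1, 2 and 3, against -0.14, -0.06 and -0.13 in WT 1, 2 and 3. The group means were 0.11 ± 0.07 in NS-DADm and -0.11 ± 0.04 in WT mice (SD, n = 3 each), a difference of 0.22. The groups did not overlap in this mean, and NS-DADm 1 stood nearest to WT. Of the 10 genes, 4 exceeded every WT library in NS-DADm 1, 6 in NS-DADm 2 and 8 in NS-DADm 3, against 25.7%, 24.8% and 25.8% of all genes. In NS-DADm 3 the 8 include Ddit4 and Nfkbia, which barely exceeded WT 3 (30.09 against 30.00 CPM and 14.76 against 14.70 CPM).

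**Figure D1:**
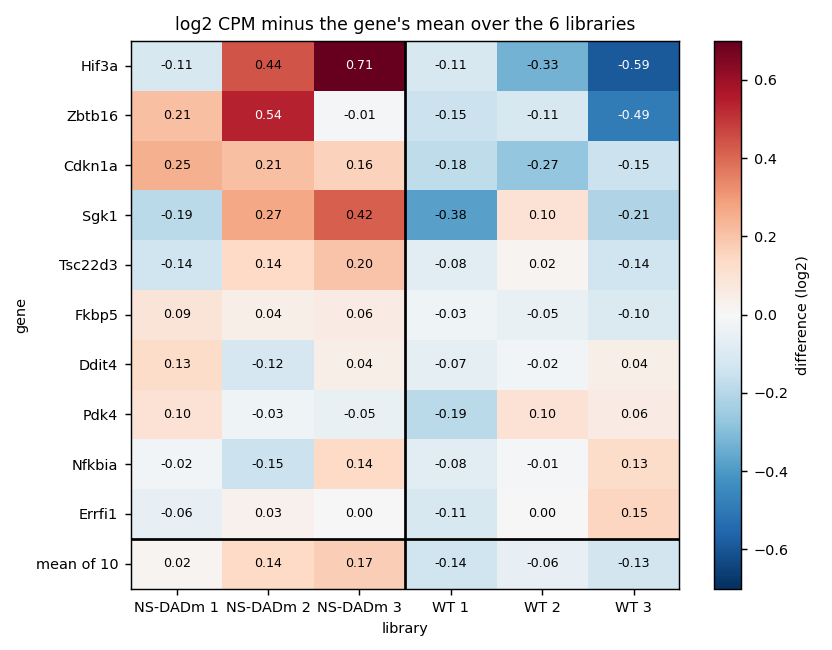
Difference of log2 CPM from each gene's mean over the 6 libraries (colour and printed value), for the 10 genes in rows and the libraries in columns, NS-DADm left of WT; the last row is the mean of the 10 genes. Hif3a, Sgk1 and Tsc22d3 are high in NS-DADm 2 and 3 and not in NS-DADm 1, whereas Cdkn1a and Fkbp5 are above 0 in all 3 NS-DADm libraries and below 0 in all 3 WT libraries.

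Genes that act back on the receptor or on inflammatory signalling came out differently from one another. Fkbp5 encodes a co-chaperone that lowers the receptor's affinity for hormone and is often used as a readout of receptor activity (chromosome 17, 28399094 to 28517527, minus strand, GRCm38). It measured 36.3, 34.97 and 35.5 CPM in NS-DADm 1, 2 and 3, against 33.2, 32.8 and 31.7 CPM in WT 1, 2 and 3. The groups did not overlap and each was tight, with a coefficient of variation of 1.93% in NS-DADm and 2.35% in WT mice, but the step between them was small. The fitted fold was 1.09 (log2 0.13 ± 0.06 SE; edgeR, BH adjusted p = 0.44).

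Tsc22d3, also called GILZ, encodes a leucine zipper protein that restrains NF-kB and AP-1. It lies on chromosome X (140539528 to 140600659, minus strand). It measured 84.0, 102 and 106 CPM in NS-DADm 1, 2 and 3, against 87.4, 93.8 and 84.1 CPM in WT 1, 2 and 3. NS-DADm 2 and 3 lay above every WT library, and NS-DADm 1 was the lowest of the 6, level with WT 3. The log2 fold change was 0.14 ± 0.08 SE (edgeR, BH adjusted p = 0.60), and -0.09 ± 0.19 SE with the mean of the thalamic markers as a covariate. Nfkbia, which encodes the inhibitor that holds NF-kB in the cytoplasm (chromosome 12, 55489410 to 55492647, minus strand), ranged from 12.1 to 14.8 CPM in NS-DADm and from 12.7 to 14.7 CPM in WT libraries. The groups overlapped and the log2 fold change was -0.02 ± 0.10 SE (edgeR, BH adjusted p = 0.97).

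Among the signalling genes, Sgk1 varied most. It encodes a kinase that regulates ion channels and transporters (chromosome 10, 21882184 to 21999903, plus strand). Sgk1 measured 32.1, 44.2 and 49.1 CPM in NS-DADm 1, 2 and 3, against 28.2, 39.2 and 31.8 CPM in WT 1, 2 and 3. NS-DADm 3 and 2 were the highest libraries, while NS-DADm 1 lay within the WT range. WT libraries alone spanned 1.39-fold, more than the 1.27-fold between the groups (log2 0.34 ± 0.20 SE; edgeR, BH adjusted p = 0.63). With the thalamic covariate the log2 value was -0.35 ± 0.39 SE. Errfi1, a feedback inhibitor of the EGF receptor (chromosome 4, 150853919 to 150868892, plus strand), ranged from 26.2 to 27.9 CPM in NS-DADm and from 25.3 to 30.3 CPM in WT libraries, which contained the NS-DADm range (log2 -0.03 ± 0.07 SE; edgeR, BH adjusted p = 0.94).

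Promoter sequence was available from RefSeq (GRCm38.p6, from 250 bases before to 50 after a start site) for 9 of the 10 genes, in 18 windows, of which Sgk1 had 6 and Tsc22d3 had 3. The 15-base palindrome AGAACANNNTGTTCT, the idealised glucocorticoid response element, was searched on both strands. So was its hexamer AGAACA, which reads TGTTCT on the opposite strand, and each full element also counts as a hexamer match. The full element was present in 1 of the 18 windows, an Sgk1 start, and in 3 of 32851 windows of all genes (0.00913%). The hexamer was present in 4 of the 18 (22.2%), 3 of Sgk1 and 1 of Tsc22d3, against 19.0% of all windows, so it was about as frequent as elsewhere. The Sgk1 window with the full element and the Tsc22d3 window are shown because these genes hold every match. Hif3a, whose values follow the same library pattern as Sgk1 and Tsc22d3, has 1 window and no match. Capitals mark the elements.
Sgk1, chr10:21993640-21993939, plus strand: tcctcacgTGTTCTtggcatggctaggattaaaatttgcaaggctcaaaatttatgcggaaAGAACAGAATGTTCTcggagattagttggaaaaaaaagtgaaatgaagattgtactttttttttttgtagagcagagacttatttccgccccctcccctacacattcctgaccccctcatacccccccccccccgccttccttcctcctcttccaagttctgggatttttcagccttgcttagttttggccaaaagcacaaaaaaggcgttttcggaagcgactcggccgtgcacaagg
Tsc22d3, chrX:140600473-140600772, minus strand: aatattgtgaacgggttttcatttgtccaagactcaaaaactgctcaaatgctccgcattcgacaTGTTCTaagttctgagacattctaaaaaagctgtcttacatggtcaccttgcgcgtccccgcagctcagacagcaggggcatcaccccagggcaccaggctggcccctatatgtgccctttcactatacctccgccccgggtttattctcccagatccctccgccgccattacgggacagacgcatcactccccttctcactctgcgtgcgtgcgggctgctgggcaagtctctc
The full Sgk1 element begins 189 bases before the start site, and a separate hexamer begins 242 bases before it. The Tsc22d3 hexamer begins 185 bases before its start. These matches are descriptions of letters, and counts per gene do not show which start site was used.

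The 2 transcription factor genes had the largest fitted values of the 10. Hif3a encodes a relative of the hypoxia-inducible factors, some forms of which restrain the others (chromosome 7, 17031507 to 17062427, minus strand). Hif3a measured 9.90, 14.6 and 17.6 CPM in NS-DADm 1, 2 and 3, against 9.91, 8.51 and 7.08 CPM in WT 1, 2 and 3. NS-DADm 2 and 3 lay above every WT library, and NS-DADm 1 equalled the highest of WT, so the groups overlapped. The fold was 1.65 (log2 0.72 ± 0.22 SE; edgeR, BH adjusted p = 0.28). Without NS-DADm 1 it passed the threshold (log2 0.92; edgeR, BH adjusted p = 0.017), as 0.661% of all genes did in that fit. It also passed with the DESeq2 Wald test (BH adjusted p = 0.0040), where 1.77% of all genes did. In the other 13 of 15 alternatives Hif3a did not pass. With single libraries left out its log2 value ran from 0.53 to 0.92.

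Zbtb16 encodes PLZF, a zinc finger repressor that itself binds corepressors and HDACs (chromosome 9, 48654297 to 48836222, minus strand). It measured 19.6, 24.6 and 16.8 CPM in NS-DADm 1, 2 and 3, against 15.3, 15.7 and 12.01 CPM in WT 1, 2 and 3. The groups did not overlap, although NS-DADm 3 exceeded WT 2 by little. NS-DADm 2, the library with the most pituitary marker reads, was the highest. The fold was 1.42 (log2 0.51 ± 0.15 SE; edgeR, BH adjusted p = 0.23). It passed the threshold with the DESeq2 Wald test (BH adjusted p = 0.018). With single libraries left out its log2 value ran from 0.34, without NS-DADm 2, to 0.63, without NS-DADm 3, and with the thalamic covariate it was 0.10 (edgeR, BH adjusted p = 0.96).

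**Figure D2:**
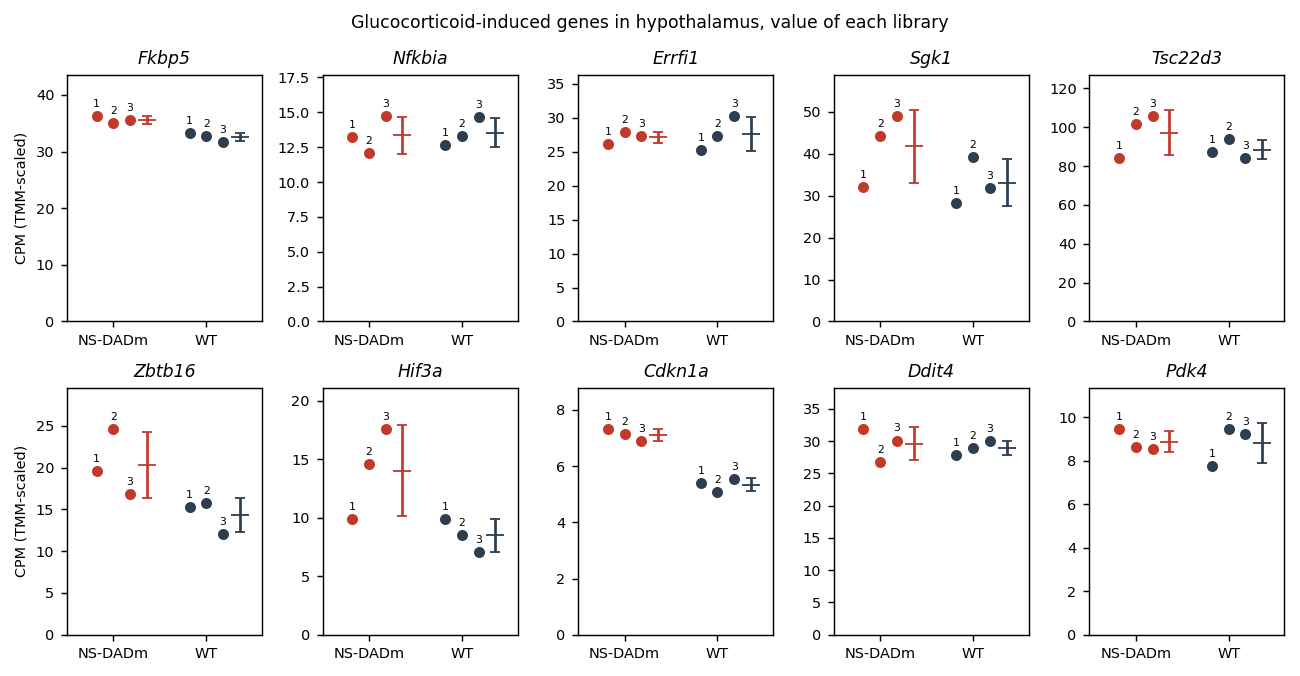
CPM of each of the 10 genes in every library (points, numbered by replicate; each axis starts at 0), with the mean and SD of each group (bar, n = 3), NS-DADm left of WT. Cdkn1a, Zbtb16 and Fkbp5 show no overlap between groups, while in Sgk1, Tsc22d3 and Hif3a NS-DADm 1 sits at the level of WT.

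Of the genes for growth and fuel use, Cdkn1a differed most evenly. It encodes p21, an inhibitor of cyclin-dependent kinases that p53 also induces (chromosome 17, 29090976 to 29100727, plus strand). Cdkn1a measured 7.32, 7.13 and 6.88 CPM in NS-DADm 1, 2 and 3, against 5.41, 5.08 and 5.53 CPM in WT 1, 2 and 3, resting on 179, 197 and 181 reads in NS-DADm and 148, 139 and 146 reads in WT libraries. The groups did not overlap, and the gap between them exceeded the spread within either. The fold was 1.33 (log2 0.41 ± 0.10 SE; edgeR, BH adjusted p = 0.11). Its p before adjustment was the smallest of the 10 genes and ranked 231 of 15894 over all genes. The log2 value stayed between 0.38 and 0.44 whichever library was left out, and no alternative brought it past the threshold.

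Ddit4, or REDD1, encodes an inhibitor of mTOR complex 1 that hypoxia and amino acid shortage also induce (chromosome 10, 59949669 to 59951834, minus strand). It ranged from 26.8 to 31.9 CPM in NS-DADm and from 27.8 to 30.0 CPM in WT libraries (log2 0.03 ± 0.07 SE; edgeR, BH adjusted p = 0.93). Pdk4, the kinase that shuts off pyruvate dehydrogenase when fat is burnt (chromosome 6, 5483351 to 5496309, minus strand), ranged from 8.56 to 9.45 CPM in NS-DADm and from 7.75 to 9.46 CPM in WT libraries (log2 0.01 ± 0.10 SE; edgeR, BH adjusted p = 0.99). Both overlapped between groups, with no library standing apart.

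Per length of merged exons, Tsc22d3 and Ddit4 were the most abundant of the 10 in both groups. Tsc22d3 had 22.4 ± 2.7 CPM per kilobase in NS-DADm and 20.4 ± 1.1 in WT mice, and Ddit4 had 16.9 ± 1.5 in NS-DADm and 16.5 ± 0.62 in WT mice (SD, n = 3 each). Sgk1, Nfkbia and Errfi1 formed a middle group. They had 8.53 ± 1.78, 8.29 ± 0.84 and 7.57 ± 0.24 in NS-DADm and 6.75 ± 1.15, 8.42 ± 0.65 and 7.72 ± 0.70 in WT mice (SD, n = 3 each), and their order differed between the groups. Cdkn1a and Hif3a were the lowest, at 2.002 and 2.09 CPM per kilobase in NS-DADm and 1.503 and 1.27 in WT mice. Annotated genes overlap Fkbp5, Hif3a and Errfi1 but share 0 exonic bases with them. Cdkn1a shares 273 exonic bases with an uncharacterised transcript on the other strand. Some Cdkn1a reads may belong to that transcript, as the use of strand in counting is not given in the sources used here.

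The library pattern of Sgk1, Tsc22d3 and Hif3a, with NS-DADm 2 and 3 above every WT library and NS-DADm 1 not, was present in 5.2% of all genes. Among 19 tested genes of a second list of glucocorticoid-induced transcripts it was present in 4, Fam107a, Mfsd2a, Mt1 and Arrdc2. Of these, named after their values were seen, Fam107a, an actin-binding protein gene of astrocytes and neurons, measured 231, 320 and 300 CPM in NS-DADm 1, 2 and 3, against 238, 173 and 180 CPM in WT 1, 2 and 3. Mfsd2a, a lipid transporter of brain vessels, measured 22.5, 26.3 and 29.1 CPM in NS-DADm 1, 2 and 3, against 21.2, 23.6 and 19.6 CPM in WT 1, 2 and 3. Neither passed the threshold (edgeR, BH adjusted p = 0.41 and 0.30).

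In that second list of 20 genes, 1 rose and 1 fell past the threshold, 16 of 19 tested had fitted values above 0, and the median log2 fold change was 0.12. Plin4, a lipid droplet coat protein gene, measured 9.86, 10.8 and 8.63 CPM in NS-DADm 1, 2 and 3, against 4.94, 5.04 and 4.43 CPM in WT 1, 2 and 3, a rise carried by every NS-DADm library (log2 1.02 ± 0.12 SE; edgeR, BH adjusted p = 0.0028). Plin4 shares 17 exonic bases with the protein-coding gene Hdgfl2 on the other strand, so the same doubt about strand applies to those bases. Rasd1, a Ras-like gene named for its induction by dexamethasone, went the other way. It fell to 10.6, 12.2 and 10.5 CPM in NS-DADm 1, 2 and 3, against 21.6, 15.1 and 17.3 CPM in WT 1, 2 and 3 (log2 -0.70 ± 0.12 SE; edgeR, BH adjusted p = 0.031). The Rasd1 call was lost without WT 3 (BH adjusted p = 0.14) and without any 1 of the NS-DADm libraries (0.10 to 0.21). Arl4d, a small GTPase gene, and Txnip, a thioredoxin inhibitor gene, had log2 fold changes of 0.56 ± 0.15 and 0.39 ± 0.12 SE without overlap of the groups, and neither passed (edgeR, BH adjusted p = 0.14 and 0.23). Txnip passed in 1 of 15 alternatives, without NS-DADm 1 (edgeR, BH adjusted p = 0.043), as 0.661% of all genes did in that fit.

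**Figure D3:**
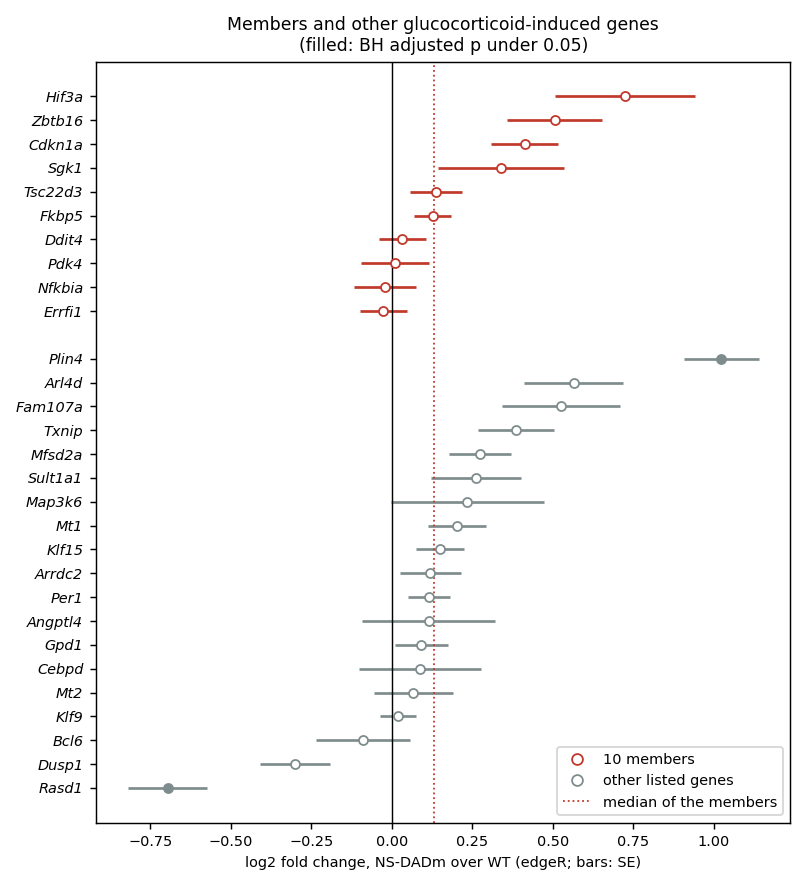
Fitted log2 fold change (NS-DADm over WT, points; bars, SE) of the 10 genes and of the 19 tested genes of the second list, filled where the BH adjusted p is under 0.05; the dotted line is the median of the 10 genes, 0.13. Plin4 and Rasd1 alone are filled, on opposite sides of 0, and Hif3a, Zbtb16 and Cdkn1a lead the 10 genes.

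Transcripts of the receptor and its chaperones leaned lower. Nr3c1, the glucocorticoid receptor gene, measured 123, 122 and 129 CPM in NS-DADm 1, 2 and 3, against 129, 141 and 139 CPM in WT 1, 2 and 3. The groups came close but did not overlap (log2 -0.13 ± 0.05 SE; edgeR, BH adjusted p = 0.37). Nr3c2, the mineralocorticoid receptor gene, which also binds corticosterone, measured 26.6, 26.3 and 27.3 CPM in NS-DADm 1, 2 and 3, against 22.7, 24.7 and 26.1 CPM in WT 1, 2 and 3 (log2 0.12 ± 0.07 SE; edgeR, BH adjusted p = 0.56). Of 11 receptor and chaperone genes, 0 passed the threshold (edgeR; 3 had an unadjusted p under 0.05, all lower), and 10 had fitted values below 0. In 6 the NS-DADm libraries lay below all WT libraries, as in 8.93% of all genes. In 1, Nr3c2, they lay above all WT libraries, as in 7.86% of all genes. The HSP90 and HSC70 genes Hsp90ab1 and Hspa8 had log2 fold changes of -0.10 and -0.09.

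Genes that set or answer the hormone upstream did not pass either. None of 4 tested genes of steroid metabolism and efflux and none of 8 stress axis peptide and receptor genes passed (edgeR; 0 of either had an unadjusted p under 0.05), and their median log2 fold changes were -0.03 and 0.02. Pomc, the precursor of the hormone that drives the adrenal, had the smallest p of the second group, with a log2 fold change of 0.22 ± 0.10 SE (edgeR, BH adjusted p = 0.49). It measured 59.2, 58.2 and 45.5 CPM in NS-DADm 1, 2 and 3, against 42.9, 51.3 and 45.2 CPM in WT 1, 2 and 3. The summed level of the pituitary markers was higher in every NS-DADm library than in any WT library. Singly, all NS-DADm libraries lay above all WT libraries in 3 of 8 tested markers, as in 7.86% of all genes. The part of pituitary tissue in the Pomc value was not tested.

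Markers of 6 glial, vascular and neuronal cell types leaned lower in NS-DADm mice, whereas hypothalamic and choroid plexus markers leaned higher. Median log2 fold changes were -0.20 for 8 oligodendrocyte, -0.11 for 7 astrocyte, -0.11 for 8 endothelial, -0.09 for 5 mural and -0.11 for 6 microglial markers, and -0.08 for 6 neuronal ones. Fitted values were below 0 in 7 oligodendrocyte, 6 astrocyte, 6 endothelial, 3 mural, 6 microglial and 5 neuronal markers, and no marker of any of these lists was at 0. Summed levels were 2364 to 2674 CPM in NS-DADm and 2744 to 2921 CPM in WT libraries for oligodendrocytes, 3311 to 3460 CPM in NS-DADm and 3300 to 3608 CPM in WT libraries for astrocytes, and 147 to 158 CPM in NS-DADm and 156 to 191 CPM in WT libraries for endothelial cells. They were 61.0 to 62.5 CPM in NS-DADm and 68.6 to 79.2 CPM in WT libraries for mural cells, 208 to 217 CPM in NS-DADm and 232 to 241 CPM in WT libraries for microglia, and 4095 to 4132 CPM in NS-DADm and 4336 to 4506 CPM in WT libraries for neurons. Of 5 blood cell markers, which summed to 1.43 to 2.51 CPM in NS-DADm and 0.987 to 1.59 CPM in WT libraries, the haemoglobin genes Hbb-bs and Hba-a1 were at 0 in every library. Alas2 of the same list was detected in every library, at 0.777 to 1.14 CPM in NS-DADm and 0.767 to 1.14 CPM in WT libraries. The 0 values were therefore not read as absence of blood, and their cause was not tested. The 7 choroid plexus markers summed to 34.3 to 45.7 CPM in NS-DADm and 36.6 to 41.4 CPM in WT libraries, with overlap. Their median log2 fold change was 0.20, with 4 of 5 tested markers above 0, and that of the hypothalamic markers was 0.19, with 8 of 9 above 0. None of these passed the threshold (edgeR; 2 higher and 1 lower choroid plexus marker and 2 higher hypothalamic markers had an unadjusted p under 0.05). Both medians exceeded the 0.13 of the 10 genes. The mean log2 CPM of the hypothalamic markers was 5.30, 5.51 and 5.41 in NS-DADm 1, 2 and 3, against 5.12, 5.36 and 5.25 in WT 1, 2 and 3. That of the tested choroid plexus markers was 1.74, 1.81 and 1.95 in NS-DADm 1, 2 and 3, against 1.78, 1.595 and 1.56 in WT 1, 2 and 3. By this mean, in both lists NS-DADm 2 and 3 lay above every WT library and NS-DADm 1 did not, as for Sgk1, Tsc22d3 and Hif3a. The summed choroid plexus level did not show this pattern. It was 45.7, 34.3 and 39.1 CPM in NS-DADm 1, 2 and 3, against 41.4, 36.6 and 37.5 CPM in WT 1, 2 and 3, so NS-DADm 1 was highest and NS-DADm 2 lowest. Ugt8a of oligodendrocytes and Rgs5 of mural cells fell past the threshold (log2 -0.52 and -0.55; edgeR, BH adjusted p = 0.0090 and 0.0033). The call of Ugt8a was lost without NS-DADm 2 (0.12), NS-DADm 3 (0.11) or WT 3 (0.054), and that of Rgs5 without NS-DADm 3 (0.051). Both were also lost with the thalamic covariate, though the values were no smaller (log2 -0.79 for Ugt8a and -0.59 for Rgs5; edgeR, BH adjusted p = 0.085 and 0.32). The part of these cells in the values of the 10 genes was not tested.

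**Figure D4:**
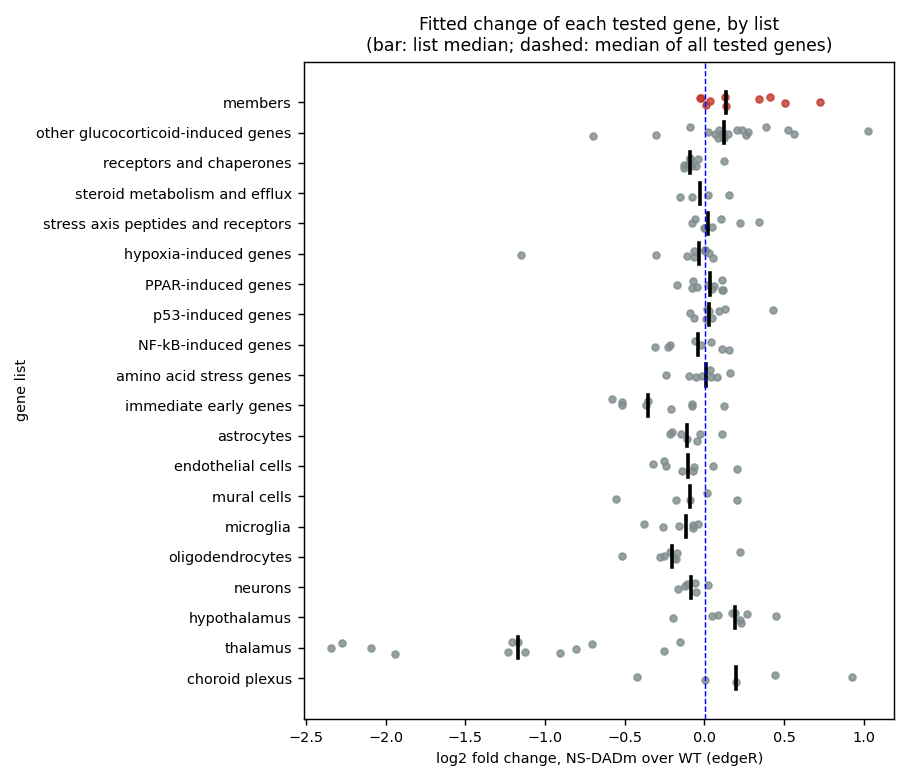
Fitted log2 fold change (NS-DADm over WT) of every tested gene of each list (points), with the list median (bar) and the median of all tested genes (dashed line); the pituitary and blood lists are left out. The 10 glucocorticoid-induced genes and the second such list have medians of 0.13 and 0.12, and thalamic markers lie lowest at -1.17.

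Thalamic markers were the cell list with the lowest median, -1.17 over 13 genes, of which 5 fell past the threshold, namely Lef1, Plcb4, Plekhg1, Rgs16 and Slitrk6. These calls were not firm. Without NS-DADm 2 all 5 were lost (edgeR, BH adjusted p = 0.061 for Lef1, 0.18 for Plcb4, 0.12 for Plekhg1, 0.080 for Rgs16 and 0.22 for Slitrk6), and without WT 3 all but that of Lef1 were (0.054 to 0.21). Those of Plcb4, Plekhg1 and Slitrk6 were also lost without NS-DADm 1 (0.072 to 0.12) or NS-DADm 3 (0.11 to 0.20), and that of Slitrk6 without WT 1 (0.12). Their mean log2 CPM was 4.50, 4.15 and 4.46 in NS-DADm 1, 2 and 3, against 5.94, 5.14 and 5.62 in WT 1, 2 and 3. This mean correlated with group at -0.92, so a fit with it as a covariate is imprecise. In it Hif3a and Cdkn1a had log2 fold changes of 0.82 ± 0.71 and 0.53 ± 0.28 SE and Fkbp5 of 0.17 ± 0.15 SE. None was below its value without the covariate, but the SEs there were 0.22, 0.10 and 0.06. Zbtb16, Sgk1 and Tsc22d3 were lower with it, at 0.10 ± 0.36, -0.35 ± 0.39 and -0.09 ± 0.19 SE. Sgk1 and Tsc22d3 then stood below 0 by less than 1 SE. In that fit 0 of the 10 passed the threshold, as did 0.0503% of all genes, 6 of the 10 had fitted values above 0, against 50.6% of all genes, and their median was 0.08. In the second list 12 of 19 were then above 0, with a median of 0.09. Plin4 (log2 0.78) and Rasd1 (-0.17) lost their calls in that fit (edgeR, BH adjusted p = 0.44 and 0.87). Because the groups do not overlap in these markers, genotype and thalamic content cannot be told apart for genes that follow both.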

How the data were processed

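Counts were the authors' deposited read counts per gene symbol, with a table for each library. TopHat2 2.0.9 (genome mm10) and HTSeq are named in the submitters' processing notes. The last 5 rows of each table, unassigned reads, were left out. The main test was edgeR's quasi-likelihood test (version 4.0.16, R 4.3.3) after filterByExpr and TMM scaling, with no covariate and BH adjustment over all genes tested. An SE is the size of the log2 fold change over the root of its F value. Levels in log2 CPM used a prior count of 2. DESeq2 1.42.0, limma 3.58.1 (voom), other scalings and filters, a replicate block, a thalamic covariate and each library left out were alternatives. Exon lengths and positions came from GENCODE M21. Run on simulated counts, the fit found most changed genes, with somewhat more false calls than the nominal share. Separate animals were the replicates.

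The 10 genes and the lists were chosen with earlier results of these data known. Named beside them were list genes that passed the threshold, up to 4 of a list with the smallest p, and both receptors.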

Additional observations from a re-analysis of the deposited data

How the results depend on the processing

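Over 15 alternatives for each of the 10 genes, 136 of 150 log2 fold changes kept their sign and their side of the threshold, 4 passed it and 10 changed sign. The number of the 10 genes past the threshold was 0, but 2 with DESeq2 (Hif3a and Zbtb16), 1 with the replicate block (Zbtb16, BH adjusted p = 0.0031, where 2.57% of all genes passed) and 0 to 1 with a library left out. The median of the 10 genes was 0.08 to 0.17 and the difference of their library mean 0.19 to 0.26. The count over all genes, 104, was 203 with no count filter, 282 with DESeq2, 409 with the replicate block, 8 with the thalamic covariate and 5 to 312 with a library left out (leaving out WT 1 gave 312, WT 2 gave 262, WT 3 gave 10, NS-DADm 2 gave 5 and NS-DADm 3 gave 8). The cause was not tested. Signs turned only for values near 0 when a library was left out: Pdk4 ran from -0.072 to 0.065, Errfi1 from -0.083 to 0.044, Nfkbia from -0.10 to 0.047 and Ddit4 from -0.022 to 0.10. With the covariate, signs turned for 4 of the 10 genes, Sgk1 (-0.35), Tsc22d3 (-0.088), Pdk4 (-0.27) and Nfkbia (0.051), for 4 of 19 of the second list, and among other genes named with values for Pomc (-0.18), Slc25a20 (0.074) and Slitrk6 (0.043), itself part of the covariate. The calls of Slitrk6 and Plcb4 were also lost with library size alone (edgeR, BH adjusted p = 0.055 and 0.051). Those of Slitrk6 and Plekhg1 were lost with no count filter (edgeR, 0.058 and 0.085). That of Slitrk6 was lost with the stricter filter (edgeR, 0.053) and with limma voom (0.070). With the covariate all 5 thalamic calls were lost. These 5 genes are part of that covariate, so that fit cannot judge their calls. Replicate numbers are shared between the groups but nothing in the labels ties same-numbered mice. The deviations of same-numbered libraries correlated at 0.13, 0.09 and -0.03, so they were not taken as pairs. NS-DADm 1 and 2 correlated best with the WT library of the same number, and NS-DADm 3 did not. The 10 genes had 139 to 2810 reads a library, and the SE of their log2 values was 0.06 to 0.22.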

Other observations

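Several of the 10 genes are also known targets of other regulators, such as hypoxia, p53, PPAR nuclear receptors and NF-kB. Of 10 hypoxia-induced genes, 0 passed the threshold (edgeR; 2 had an unadjusted p under 0.05, both lower), with a median log2 fold change of -0.03. Adm, for the vasodilator adrenomedullin, and Egln3, an oxygen-sensing hydroxylase gene, had log2 fold changes of -1.15 ± 0.32 and -0.31 ± 0.12 SE, opposite in sign to Hif3a. Adm was scarce, at 0.342 to 0.655 CPM in NS-DADm and 0.841 to 1.63 CPM in WT libraries. It passed in 1 of 14 alternatives, without WT 2 (log2 -1.36, edgeR BH adjusted p = 0.047). Of 9 p53-induced genes, 0 passed and 0 had an unadjusted p under 0.05 (median 0.03), with Eda2r, a death receptor gene, at 0.43 ± 0.24 SE beside Cdkn1a at 0.41. Of 10 PPAR-induced genes, 0 passed and 0 had an unadjusted p under 0.05 (median 0.04), with Slc25a20, a carnitine carrier gene, at -0.17 ± 0.09 SE.

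Of 8 tested NF-kB-induced genes, 0 passed (edgeR; 1 had an unadjusted p under 0.05), with a median log2 fold change of -0.04. That gene was Vcam1, a vascular adhesion gene, which measured 32.5, 22.4 and 25.9 CPM in NS-DADm 1, 2 and 3, against 32.8, 32.3 and 34.7 CPM in WT 1, 2 and 3. NS-DADm 2 and 3 lay below every WT library. The share of all genes with that pattern was not computed. Vcam1 passed the threshold in 1 of 15 alternatives, without NS-DADm 1 (log2 -0.46, edgeR BH adjusted p = 0.030), as 0.661% of all genes did in that fit. Of 8 amino acid stress genes, 0 passed (edgeR, 1 had an unadjusted p under 0.05), with a median of 0.01. The cystine transporter gene Slc7a11 stood at -0.24 ± 0.11 SE. It passed in 1 of 15 alternatives, without WT 1 (edgeR, BH adjusted p = 0.0014), as 1.95% of all genes did in that fit. Of 9 immediate early genes, which neurons switch on within minutes of activity, 0 passed (1 had an unadjusted p under 0.05), yet 8 had fitted values below 0 and the median was -0.35. The mean log2 CPM of these 9 genes overlapped between the groups. It was 3.10, 2.41 and 2.79 in NS-DADm 1, 2 and 3, against 2.68, 3.01 and 3.39 in WT 1, 2 and 3. Only in Ier2 did all NS-DADm libraries lie below all WT libraries, as in 8.93% of all genes. Ier2 measured 2.78, 2.24 and 2.05 CPM in NS-DADm 1, 2 and 3, against 3.77, 3.11 and 3.71 CPM in WT 1, 2 and 3 (edgeR, BH adjusted p = 0.16).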
